A study of Mus musculus with 10 samples.

Results

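The MHC class II presentation genes are the 7 genes *H2-Aa*, *H2-Ab1*, *H2-Eb1*, *H2-DMa*, *H2-DMb1*, *Cd74*, and *Ciita*, chosen by name from their known roles among 51717 annotated genes. The choice was made with earlier results of these data known. All 7 genes were found, and 6 of them were among the 12381 genes with enough reads to test, *Ciita* being the exception. RNA was sequenced from CD45.2+ granulocyte-macrophage progenitors (GMPs) of mixed bone marrow chimeras in irradiated CD45.1 hosts, which keep some host hematopoietic cells. The CD45.2 donor marrow was given together with CD45.1 marrow, whose cells the sort for CD45.2 leaves out. The WT group had 5 samples of genotype ROSA26 CreER+/- and the recent KO group had 5 of genotype Mpc2fl/fl; ROSA26 CreER+/-. All were labeled male C57Bl6/N mice, and ages are not given in the sources used here. Both groups carried CreER and both ate tamoxifen chow for 2 wk before the bone marrow was taken. ROSA26 drives CreER in all cell types of the CD45.2 donor, so deletion was not limited to GMPs. Cells of 1 mouse went into each WT sample, whereas each recent KO sample pooled 2 mice and averages over them. The labels call the samples biological replicates. *Mpc2* encodes a subunit of the mitochondrial pyruvate carrier, and the question was what its recent loss does to RNA levels in GMPs.

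Class II molecules present peptides from the endocytic pathway to CD4 T cells. An α chain and a β chain pair in the endoplasmic reticulum with the invariant chain, which blocks the groove and steers the complex to endosomes. There the DM heterodimer removes the last invariant chain fragment so that peptide can bind. CIITA is a coactivator that is recruited to X and Y boxes in class II promoters and is held to be the main switch of the pathway in dendritic cells, B cells, and macrophages. GMPs are progenitors of granulocytes and monocytes and are not regarded as professional presenting cells.

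The 3 promoter windows below are shown because they carry the X and Y motifs next to each other, and because the RNA levels of their genes lay far apart. They are RefSeq windows on GRCm38.p6, from 250 bases before to 50 after an annotated start, read in the direction of the gene. *H2-Aa* lies at chr17:34287774-34288073 (- strand), *H2-Eb1* at chr17:34305617-34305916 (+ strand), and *H2-DMb1* at chr17:34152941-34153240 (+ strand). Capitals mark CTNGNAAC, a core of the X box, followed by TGATTGG, a core of the Y box that holds the CCAAT sequence on the other strand.
H2-Aa: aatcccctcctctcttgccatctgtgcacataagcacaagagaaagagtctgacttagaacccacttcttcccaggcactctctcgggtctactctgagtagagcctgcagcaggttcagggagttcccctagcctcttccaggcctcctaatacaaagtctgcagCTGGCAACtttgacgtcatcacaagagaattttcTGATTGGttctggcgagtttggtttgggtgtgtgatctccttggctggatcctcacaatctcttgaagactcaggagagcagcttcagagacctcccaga
H2-Eb1: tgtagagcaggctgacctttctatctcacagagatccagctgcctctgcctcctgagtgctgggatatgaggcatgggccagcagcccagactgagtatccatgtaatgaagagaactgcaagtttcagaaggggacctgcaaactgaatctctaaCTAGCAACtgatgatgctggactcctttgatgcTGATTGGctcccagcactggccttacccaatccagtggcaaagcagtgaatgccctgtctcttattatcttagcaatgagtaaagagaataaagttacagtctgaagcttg
H2-DMb1: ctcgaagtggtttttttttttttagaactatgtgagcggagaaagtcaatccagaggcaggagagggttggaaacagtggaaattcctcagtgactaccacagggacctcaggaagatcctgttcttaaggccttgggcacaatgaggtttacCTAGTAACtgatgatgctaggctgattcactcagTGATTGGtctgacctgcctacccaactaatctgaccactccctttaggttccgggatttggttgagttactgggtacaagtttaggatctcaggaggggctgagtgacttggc

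Each of the 3 windows held 1 match to each motif, with 26, 25, and 26 bases between the motifs in *H2-Aa*, *H2-Eb1*, and *H2-DMb1*, respectively. The motifs were spelled out after these sequences had been read and were searched on both strands. The X motif alone was in 13.2% of 32851 windows of this length and the Y motif alone in 7.82%. The X motif followed by the Y motif on the same strand with their starts at most 45 bases apart was in 31 windows, or 0.0944%. The window of *H2-DMb2*, a near copy of *H2-DMb1*, held the Y motif and no X motif in these letters. Neither of the 2 windows of *H2-DMa* held either motif, but most *H2-DMa* reads were assigned to a transcript that starts elsewhere, as described below. RefSeq windows were read for *H2-Aa*, *H2-Eb1*, *H2-DMa*, and *H2-DMb1* and not for *H2-Ab1*, *Cd74*, and *Ciita*. A match describes letters only.

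Libraries totaled 14033776 to 19745405 estimated reads, and 3 reads in a sample corresponded to 0.147 to 0.233 CPM, that is, reads scaled to a common library size. *Mpc2* measured 61.0, 111, 95.2, 117, and 60.9 CPM in WT samples 1 to 5 and 27.7, 17.1, 43.9, 37.0, and 35.0 CPM in recent KO samples 1 to 5. The groups did not overlap, and the log2 fold change (recent KO over WT, as throughout) was -1.46 ± 0.24 (SE, edgeR adjusted p = 0.0156). According to the paper, an exon of *Mpc2* is floxed and not the whole gene, whereas these reads were summed over the gene. The *Mpc2* RNA left in recent KO therefore does not measure how complete the deletion was. GMP markers were abundant in every sample, with the 12 genes of the list summing to 53871 CPM or more. Markers of mature presenting cells were uneven. Of 11 dendritic cell markers, *Itgax*, *Zbtb46*, *Batf3*, *Clec9a*, *Cd209a*, *Ccr7*, and *Cd300e* stayed at or below 0.489 CPM in every sample, whereas *Flt3* reached 37.8 CPM, *Mgl2* 29.1 CPM, *Clec10a* 7.15 CPM, and *Xcr1* 1.55 CPM. Of the 6 plasmacytoid dendritic cell markers, *Siglech*, *Ccr9*, *Klk1*, and *Spib* stayed at or below 0.555 CPM in every sample. The remaining ones were higher, with *Bst2* at 106 to 185 CPM and *Tcf4* at 26.6 to 42.2 CPM. The B cell markers *Pax5*, *Ebf1*, *Ms4a1*, *Cd22*, and *Vpreb3* stayed at or below 0.333 CPM, whereas *Cd79b* alone measured 48.9 to 65.7 CPM.

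No class II presentation gene passed the test between recent KO and WT GMPs. Of the 6 tested, 0 had an edgeR adjusted p under 0.05, against 41 of all 12381 genes (0.331%), and 2 of 6, *H2-Eb1* and *Cd74*, had an unadjusted p under 0.05, against 10.2% of all genes in either direction and 4.89% with recent KO higher, as both were. DESeq2 and limma also called 0 of the 6. The log2 fold change of all 6 was above 0, with a median of 0.30, beside a median of -0.0018 over all genes, of which 49.6% were above 0. The 6 genes are not independent of each other, and no test was made of the set. Per length, in TPM, *H2-DMa*, *H2-Ab1*, and *H2-DMb1* stood at the top, *Cd74*, *H2-Aa*, and *H2-Eb1* in the middle, and *Ciita* close to 0.

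**Figure D1:**
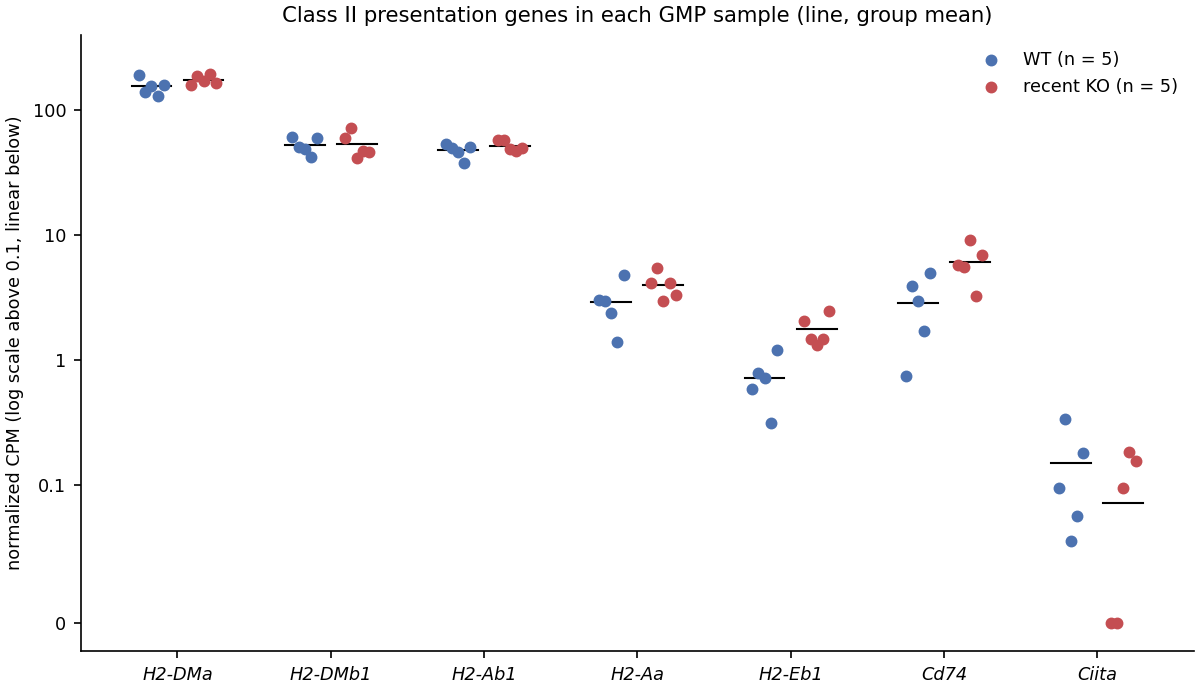
Normalized CPM of the 7 genes in each sample, with WT in blue, recent KO in red, and a line at each group mean (n = 5). The axis is logarithmic above 0.1 CPM and linear below. Recent KO and WT points separate for *H2-Eb1* and overlap for the other 6 genes.

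Levels between genes were compared in TPM, Salmon's abundance corrected for transcript length. *H2-DMa* averaged 155 TPM over the 10 samples and was above *H2-Ab1*, with 43.7 TPM, in 10 of 10 samples. *H2-Ab1* was above *H2-DMb1*, with 37.6 TPM, in 9 of 10 samples, although the ranges of these 2 genes overlapped at 29.9 to 53.4 TPM and 26.9 to 53.6 TPM. The step from *H2-DMb1* to *Cd74*, with 3.68 TPM, was 10.2-fold and held in 10 of 10 samples. *Cd74* and *H2-Aa*, with 3.25 TPM, were in this order in 6 of 10 samples and so did not differ beyond their spread. *H2-Aa* was above *H2-Eb1*, with 1.45 TPM, in 10 of 10 samples. *Ciita* averaged 0.0205 TPM and was below all others in every sample.

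*Ciita* had almost no reads in either group. The estimated reads were 2, 6, 1, 1, and 3 in WT samples 1 to 5 and 0, 0, 2, 3, and 3 in recent KO samples 1 to 5, which makes 21 reads over 10 libraries. Only WT sample 2, with 6 reads or 0.333 CPM, was above 3 reads, the limit that a count of 0 allows. A difference between the groups was therefore not detectable at this depth, and no fold change is given. The few reads fell on the protein-coding transcripts Ciita-201 (10.3 reads), Ciita-203 (6 reads), and Ciita-205 (4.66 reads), which start at different first exons at 10488279, 10489781, and 10480059 on chromosome 16 of GRCm38. Shares of these transcripts were not tested, because 2 samples had no *Ciita* read.

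The question of whether *Ciita*, the invariant chain, and the class II chains move together could not be answered from *Ciita* itself. Over the 10 samples, on log2(CPM + 0.1), Pearson r of *Ciita* ran from -0.42 with *H2-DMb1* to -0.0656 with *Cd74*, and Spearman rho from -0.26 with *H2-Ab1* to 0.12 with *H2-DMa*. The adjusted permutation p was 0.864 for each of the 6 Pearson values and 0.899 for each of the 6 Spearman values. Without WT sample 2 and recent KO sample 1, the samples farthest from the *Ciita* median, r ran from -0.42 to 0.23. These values rest on 0 to 6 *Ciita* reads per sample.

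The α and β chains of the A molecule were present in very unequal amounts. *H2-Ab1* encodes the β chain and lies at 34257689 to 34269419 on chromosome 17 of GRCm38 (+ strand). It measured 53.7, 49.2, 46.1, 37.8, and 50.6 CPM in WT samples 1 to 5 and 57.4, 57.6, 48.2, 46.6, and 49.2 CPM in recent KO samples 1 to 5. The groups overlapped, with 2 of 5 recent KO samples above the highest WT sample, and the log2 fold change was 0.12 ± 0.10 (SE, 95% interval -0.0876 to 0.33, edgeR adjusted p = 0.745).

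*H2-Aa* encodes the α chain that pairs with it and lies at 34282744 to 34287823 of the same chromosome (- strand). It measured 3.03, 2.94, 2.37, 1.40, and 4.79 CPM in WT samples 1 to 5 and 4.08, 5.38, 2.93, 4.14, and 3.30 CPM in recent KO samples 1 to 5, from 18 to 80 estimated reads. WT sample 4 was lowest and 1 recent KO sample was above every WT sample. The log2 fold change was 0.43 ± 0.27 (SE, 95% interval -0.16 to 1.02, edgeR adjusted p = 0.640). This interval reaches from a fold of 0.896 to 2.02, so it holds both no change and a 2-fold increase.

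Within a sample, *H2-Ab1* exceeded *H2-Aa* by 9.81-fold to 24.9-fold in TPM. The *H2-Aa* to *H2-Ab1* ratio was 0.0586, 0.0643, 0.0553, 0.0402, and 0.0956 in WT samples 1 to 5 and 0.0775, 0.102, 0.0657, 0.0938, and 0.0721 in recent KO samples 1 to 5. All recent KO samples were above 4 of the 5 WT samples, and WT sample 5 lay among them. The log2 ratio was -4.05 ± 0.45 in WT and -3.62 ± 0.26 in recent KO (SD, n = 5), a difference of 0.43 (exact two-sided permutation test, p = 0.103, adjusted over 3 ratios 0.155). Without WT sample 5 the difference was 0.59 (exact permutation test, adjusted p = 0.0476), and without WT sample 4 it was 0.28 (exact permutation test, adjusted p = 0.310). Nearly all reads of both genes were assigned to their full-length coding transcripts, 99.6% to H2-Aa-201 and 94.6% to H2-Ab1-201. BLAST found no transcript of another gene with at least 90% identity over at least 100 bases to either of them.

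*H2-Eb1* encodes the β chain of the E molecule and lies at 34305867 to 34316674 of chromosome 17 (+ strand). C57BL/6 mice have the b haplotype, whose E α chain gene is not functional, so they make no E molecule at the surface. The files' annotation names that gene *H2-Ea-ps*, and it had 3 estimated reads in all. *H2-Eb1* measured 0.587, 0.776, 0.712, 0.311, and 1.20 CPM in WT samples 1 to 5 and 2.04, 1.47, 1.32, 1.46, and 2.47 CPM in recent KO samples 1 to 5. The groups did not overlap on this scale. Of all tested genes, 2.43% showed this in either direction and 1.11% with recent KO higher. The log2 fold change was 1.27 ± 0.33 (SE, 95% interval 0.55 to 1.98, unadjusted p = 0.00195, edgeR adjusted p = 0.183), so the difference did not pass the test over all genes.

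The reads behind the *H2-Eb1* difference were few and mostly not assigned to coding transcripts. WT samples had 4 to 20 estimated reads and recent KO samples 21 to 48. Of the 211 reads in all, 44.0% were assigned to transcripts with a retained intron, 31.3% to a transcript subject to nonsense-mediated decay, and 24.7% to protein-coding transcripts. The coding transcript H2-Eb1-203 (264 residues) took from 0 to 78.7% of the reads of a sample. The other coding transcript, H2-Eb1-201 (287 residues), took from 0 to 17.7%. In TPM, which depends on this assignment, the groups overlapped, at 0.450 to 1.37 TPM in WT and 1.11 to 3.15 TPM in recent KO. The antisense gene *Gm20513*, which overlaps the 5′ end of *H2-Eb1*, had 0 reads in every sample. The libraries do not mark strand, so this count cannot tell whether reads assigned to *H2-Eb1* were sense or antisense.

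*Cd74* encodes the invariant chain and lies on chromosome 18. It measured 0.734, 3.88, 2.97, 1.71, and 4.91 CPM in WT samples 1 to 5 and 5.70, 5.52, 9.04, 3.23, and 6.91 CPM in recent KO samples 1 to 5. Of the recent KO samples, 4 of 5 were above every WT sample and recent KO sample 4 lay within the WT range. The log2 fold change was 1.10 ± 0.39 (SE, 95% interval 0.27 to 1.94, unadjusted p = 0.0135, edgeR adjusted p = 0.331). With no filter on low counts, the same test called *Cd74* with an adjusted p of 0.0379, in a table of 27909 genes of which 0.738% were called. Over the other alternatives, leaving out each sample included, the adjusted p of *Cd74* was not under 0.05.

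*Cd74* RNA was also low beside the summed RNA of the chains it binds. The ratio of *Cd74* TPM to the summed TPM of *H2-Aa*, *H2-Ab1*, and *H2-Eb1* was 0.0118, 0.0698, 0.0571, 0.0383, and 0.0782 in WT samples 1 to 5 and 0.0829, 0.0813, 0.160, 0.0577, and 0.116 in recent KO samples 1 to 5. The summed chain RNA thus exceeded that of the invariant chain by 6.23-fold to 84.9-fold, most of all in WT sample 1. Most of this sum was *H2-Ab1*, which averaged 43.7 TPM over the 10 samples. The *Cd74* average of 3.68 TPM was above those of *H2-Aa* (3.25 TPM) and *H2-Eb1* (1.45 TPM). The log2 ratio was -4.55 ± 1.11 in WT and -3.42 ± 0.56 in recent KO (SD, n = 5), a difference of 1.14 (exact two-sided permutation test, p = 0.0397, adjusted p = 0.119). Leaving out WT sample 5 gave a difference of 1.36 and leaving out recent KO sample 4 gave 1.31, each with an adjusted p of 0.0476 by the exact permutation test, whereas without WT sample 1 it was 0.67 (exact permutation test, adjusted p = 0.238), so the size and the call depended on single samples.

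**Figure D2:**
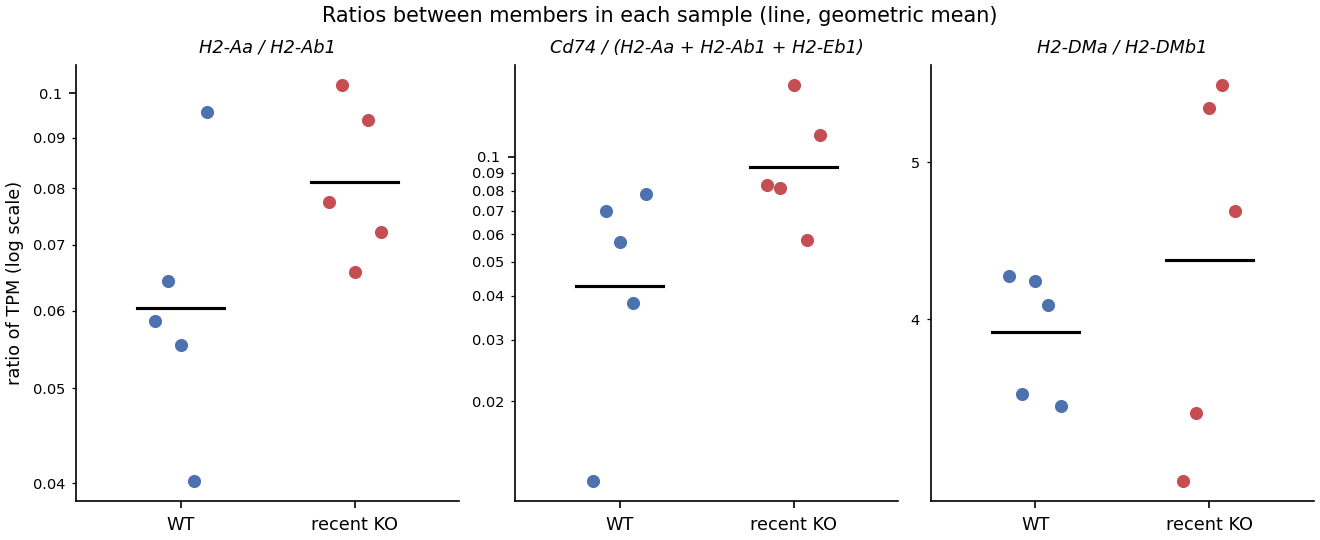
Ratios of TPM within each sample on logarithmic axes, with WT in blue, recent KO in red, and a line at the geometric mean of 5 samples. *H2-Aa* stayed at 0.102 or less of *H2-Ab1*, *Cd74* stayed below the summed chains in every sample, and *H2-DMa* stayed above *H2-DMb1* in every sample.

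Reads of 2 annotated coding transcripts of the invariant chain were seen, and another, Cd74-203, was listed at 0 in every sample. Cd74-201 encodes 215 residues from 8 exons and Cd74-202 encodes 279 residues from 9 exons, the longer form being the one with an additional exon. Cd74-202 took 12.6 ± 20.8% of *Cd74* reads in WT and 13.7 ± 6.65% in recent KO (SD, n = 5), a difference of 1.13 percentage points (exact two-sided permutation test, p = 0.944). WT sample 4 stood apart, with 48.8% of only 22 reads on the longer form, and without it the difference was 10.2 percentage points (exact permutation test, p = 0.0476). Over the 8 samples with at least 50 *Cd74* reads, 3 of them WT, the difference was 9.0 percentage points (exact permutation test, p = 0.107).

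Among the 7 members, *H2-DMa* had the highest level, and neither DM gene passed the test. *H2-DMa*, the α chain of the peptide-exchange factor DM, measured 189, 139, 157, 129, and 160 CPM in WT samples 1 to 5 and 157, 186, 171, 193, and 163 CPM in recent KO samples 1 to 5. Recent KO sample 4 was highest, and the other 4 recent KO samples lay within the WT range. The log2 fold change was 0.17 ± 0.0951 (SE, 95% interval -0.0345 to 0.37, edgeR adjusted p = 0.576). *H2-DMb1*, the β chain, measured 60.4, 50.7, 48.9, 41.9, and 60.0 CPM in WT samples 1 to 5 and 59.3, 71.3, 41.6, 46.6, and 46.0 CPM in recent KO samples 1 to 5. Recent KO sample 2 was highest and recent KO sample 3 lowest, with all WT samples between them, and the log2 fold change was 0.0120 ± 0.14 (SE, 95% interval -0.30 to 0.32, edgeR adjusted p = 0.988). For *H2-DMa* and *H2-DMb1* the intervals excluded folds above 1.30 and 1.25.

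The DM chains were closer to balance than the A chains. The *H2-DMa* to *H2-DMb1* ratio in TPM was 3.54 to 4.25 in WT and 3.18 to 5.58 in recent KO, and the recent KO samples spread on both sides of the WT range. The log2 ratio was 1.97 ± 0.13 in WT and 2.12 ± 0.37 in recent KO (SD, n = 5), a difference of 0.15 (exact two-sided permutation test, p = 0.444, adjusted p = 0.444). *H2-DMb1* shares 95.7% identity over 1081 bases with the neighboring *H2-DMb2*, so reads could be divided between them. *H2-DMb2* measured only 2.95 to 5.54 CPM, and the sum of both genes was not called by edgeR either.

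Of the *H2-DMa* reads, 92.6% were assigned to H2-DMa-205, which starts at 34135628 on chromosome 17 of GRCm38. H2-DMa-201, which starts 12.8 kb upstream at 34122832, took 6.67%, and both encode 261 residues. The share of H2-DMa-205 was at least 88.5% in each of the 10 samples. The 2 RefSeq windows of *H2-DMa* end at 34122881 and 34125567, so that the first surrounds the start of H2-DMa-201 and neither reaches that of H2-DMa-205.

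**Figure D3:**
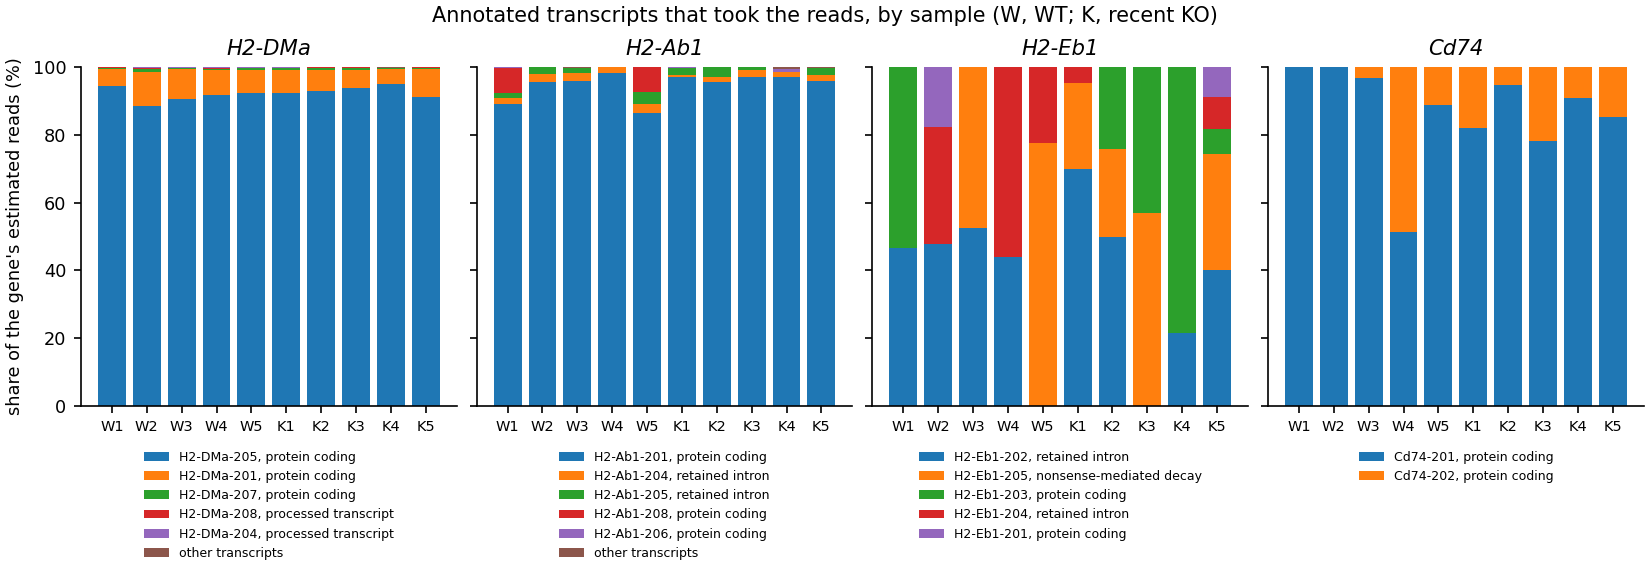
Share of each gene's estimated reads by annotated transcript in WT samples 1 to 5 (W1 to W5) and recent KO samples 1 to 5 (K1 to K5), each bar adding to 100%. H2-DMa-205 and H2-Ab1-201 dominate in every sample, whereas the assignment of the 211 *H2-Eb1* reads changes from sample to sample.

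**Figure D4:**
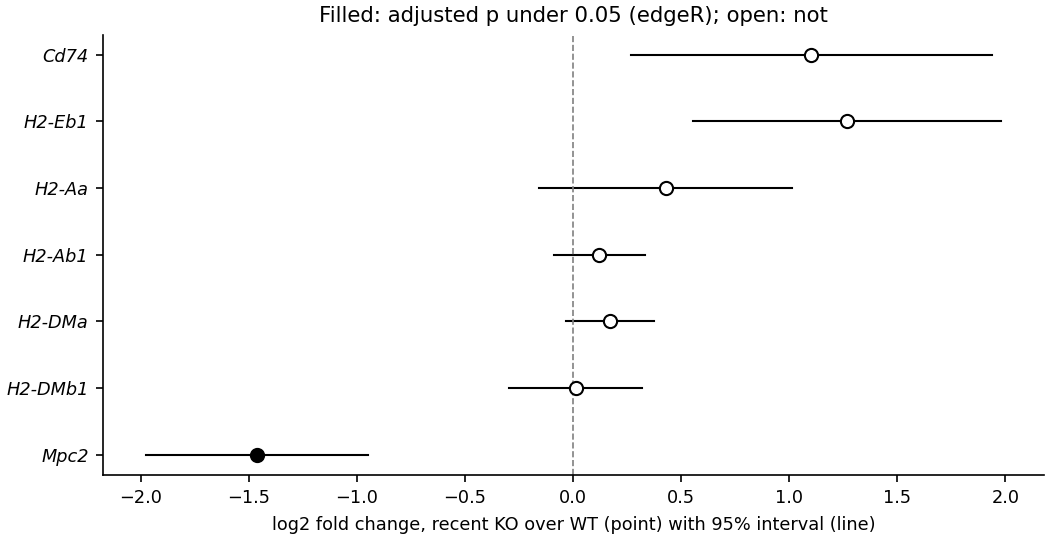
Log2 fold change (recent KO over WT) for the 6 tested genes and *Mpc2*, with 95% intervals from the edgeR quasi-likelihood test. Filled points have an adjusted p under 0.05, which only *Mpc2* has among these 7, and the intervals of *H2-Eb1* and *Cd74* are the widest.

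Agreement between members was therefore read from the 5 tested genes whose groups overlapped, over the 10 samples. Among their 10 pairs, on log2(CPM + 0.1), *H2-Ab1* and *H2-DMb1* gave Pearson r = 0.81 (permutation test, p = 0.0018, adjusted p = 0.0184) and Spearman rho = 0.78 (permutation test, p = 0.0102, adjusted p = 0.102). Without the 2 samples farthest from the *H2-Ab1* median r was 0.74. *H2-Aa* gave r = 0.82 with *H2-Ab1* and 0.70 with *H2-DMb1* (permutation test, adjusted p = 0.0535 for each). Without the 2 samples farthest from the *H2-Aa* median, r of these pairs was 0.37 and 0.42. With group means subtracted, r was 0.87 for *H2-Ab1* and *H2-DMb1*, 0.79 for *H2-Aa* and *H2-Ab1*, and 0.80 for *H2-Aa* and *H2-DMb1* (permutation test, adjusted p = 0.0034, 0.0260, and 0.0180). These p are approximate and may be too small, because values centered within each group were permuted across all 10 samples. For *Cd74*, r was 0.44, 0.26, 0.0041, and -0.0809 with *H2-Aa*, *H2-Ab1*, *H2-DMa*, and *H2-DMb1* (permutation test, adjusted p = 0.355 to 0.956), and 0.18, 0.0126, -0.48, and -0.11 with group means subtracted. The values with *Cd74* rested on WT sample 1, the lowest in *Cd74*, without which r was 0.60, 0.70, 0.50, and 0.23 (permutation test, adjusted p = 0.0884 to 0.557). All values of a sample share 1 library and its scaling, and the number of pairs with an adjusted p under 0.05 was 1 as given here and 0 without WT sample 4 or without recent KO sample 2. These pairs were added after the data were seen.

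Several markers of macrophages were higher in recent KO, the direction in which *Cd74* and *H2-Eb1* leaned without passing the test. The 12 macrophage markers summed to 22.7 to 46.5 CPM in WT and 50.9 to 91.0 CPM in recent KO, without overlap, and none was at 0 in all samples. Of single tested genes, 1.11% did not overlap with recent KO higher, a share of genes and not of sums. This list was chosen with earlier results of these data known. Its sum and its count of calls are therefore a description and no test of the list. Of the 11 tested, 3 were called, all higher in recent KO, beside 0.121% of all genes called in that direction. These were the complement genes *C1qa* (log2 fold change 1.25, edgeR adjusted p = 0.0406), *C1qb* (1.35, edgeR adjusted p = 0.0160), and *C1qc* (1.59, edgeR adjusted p = 0.0383). *C1qb* measured 2.69 to 6.71 CPM in WT and 8.14 to 12.5 CPM in recent KO. The macrophage genes *Cd5l* and *Fcna* had an adjusted p of 0.0544 and 0.0626. *Adgre1*, which encodes the macrophage marker F4/80, had a log2 fold change of -0.39, *Vcam1* of 0.18, and *Slc40a1* of 0.0738 (edgeR adjusted p = 0.569, 0.862, and 0.949). Within WT, sample 1 was lowest and sample 5 highest both in the macrophage sum and in *Cd74*. *H2-Eb1* in WT was also highest in sample 5 but lowest in sample 4, whose macrophage sum was 37.8 CPM. In recent KO samples the orders differed, since sample 2 had the highest sum, sample 3 the highest *Cd74*, and sample 5 the highest *H2-Eb1*. Macrophages express class II genes, and the part of these cells in the *Cd74* and *H2-Eb1* values was not tested. In bulk RNA, more cells of a type and more RNA per cell cannot be told apart.

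**Figure D5:**
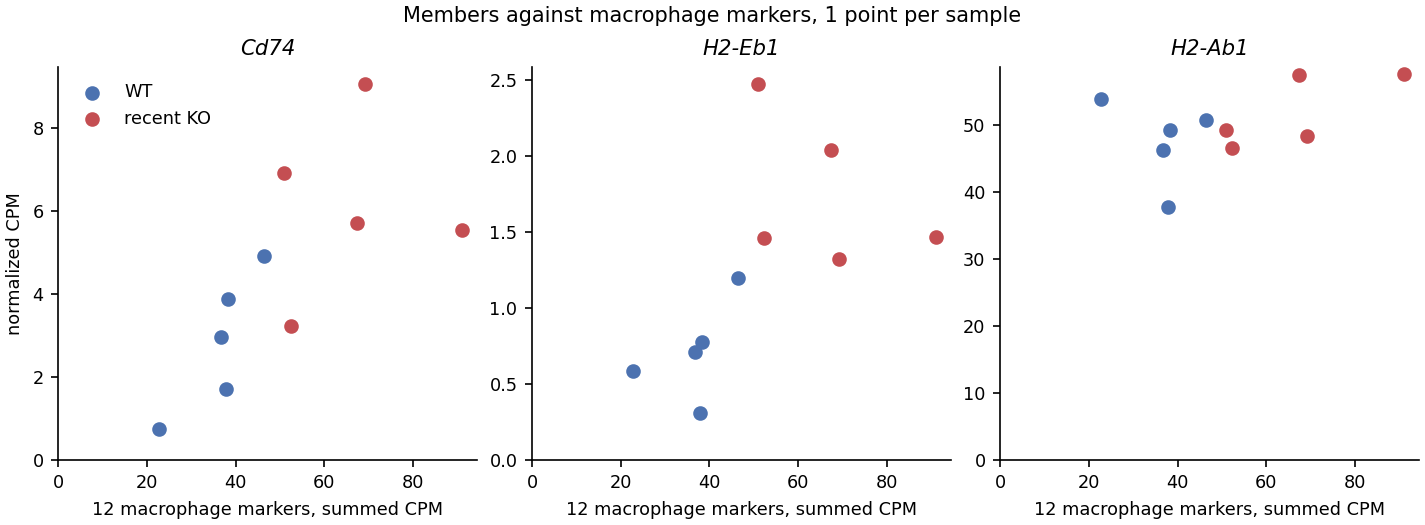
Normalized CPM of *Cd74*, *H2-Eb1*, and *H2-Ab1* against the summed CPM of 12 macrophage markers, with 1 point per sample (WT blue, recent KO red). The recent KO samples sit to the right, at 50.9 CPM or more, and are higher for *H2-Eb1* and mostly for *Cd74*, whereas *H2-Ab1* covers a similar range in both groups.

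Of 4 tested dendritic cell markers, 1 was called, beside 0.331% of all genes called in either direction. This was *Mgl2*, at 18.7 to 29.1 CPM in WT and 8.77 to 16.6 CPM in recent KO (log2 fold change -1.09, edgeR adjusted p = 0.00973). An unadjusted p under 0.05 was found for 1 of the 4 with recent KO higher and for 2 with recent KO lower. The shares of all genes were 4.89% and 5.35%. *Flt3*, a receptor of early progenitors and dendritic cells, had a log2 fold change of 0.98 (edgeR adjusted p = 0.0597). Among 2 tested plasmacytoid dendritic cell, 1 B cell, 8 monocyte, and 12 GMP markers, 0 were called by edgeR, and 0, 0, 4, and 7 had an unadjusted p under 0.05, all lower in recent KO, beside 5.35% of all genes with an unadjusted p under 0.05 in that direction. The median log2 fold change was -0.43 over the tested monocyte markers and -0.34 over the GMP markers. The T cell markers were too low to test and summed to 0.233 to 4.57 CPM.

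The remaining genes of the pathway were not called either. Of the 5 other class II genes, 3 were tested, and *H2-Oa* and *H2-Ob*, the chains of the DM inhibitor DO, had log2 fold changes of 0.35 and 0.24 (unadjusted p = 0.0552 and 0.168 by edgeR). *H2-DMb2* had a log2 fold change of -0.0409, and *H2-Eb2* and *H2-Ea-ps* never exceeded 3 reads.

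Of 22 genes for class II transcription and interferon-γ signaling, 20 were tested and 0 were called. Beside 5.35% of all genes with an unadjusted p under 0.05 and lower in recent KO, 3 of the 20 had this, and 0 were higher. The 3 lower genes were *Spi1*, the myeloid factor PU.1 (log2 fold change -0.25), *Irf8*, a factor of monocyte and dendritic cell fate (-0.55), and *Rfxank*, a subunit of the RFX complex that binds the X box (-0.36), with edgeR adjusted p of 0.270, 0.302, and 0.383. The other RFX subunits *Rfx5* and *Rfxap* measured 4.25 to 6.17 CPM and 26.4 to 36.2 CPM over both groups. The CCAAT-binding subunits *Nfya*, *Nfyb*, and *Nfyc* measured 3.62 to 5.13, 45.9 to 57.7, and 49.5 to 59.1 CPM. RNA of these DNA-binding partners of CIITA was present in every sample, beside *Ciita* RNA of 0.333 CPM or less. The interferon-γ receptor gene *Ifngr1* measured 194 to 457 CPM.

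Of 11 peptide processing genes, all were tested and 0 were called. The protease legumain, *Lgmn*, had the smallest p (log2 fold change 1.12, unadjusted p = 0.0114, edgeR adjusted p = 0.312) at 0.233 to 2.25 CPM, and it is also abundant in macrophages. *Cst3*, a cathepsin inhibitor, and the protease *Ctse* had log2 fold changes of -0.14 and 0.58 (edgeR adjusted p = 0.516 and 0.534). *Ctss*, the protease that trims the invariant chain in presenting cells, measured 19.4 to 30.0 CPM in WT and 15.3 to 32.7 CPM in recent KO.

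Among 9 genes of class II turnover and costimulation, 5 were tested and 0 were called. *Cd86*, *Cd274*, and *Icosl* had the smallest p, with log2 fold changes of 0.46, 0.21, and -0.21 (edgeR adjusted p = 0.665, 0.844, and 0.880). All 5 genes for invariant chain partners at the cell surface were tested and 0 were called, the smallest p belonging to *Cxcr4*, *Cd44*, and *Cxcr2* (edgeR adjusted p = 0.645, 0.720, and 0.750). *Mif*, the ligand of the invariant chain, measured 1479 to 2127 CPM.

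Class I presentation genes spanned a wide range of levels. *H2-K1*, a class I heavy chain, measured 1368 to 1799 CPM in WT and 1302 to 1780.1 CPM in recent KO, and *B2m*, the common light chain, 2439 to 3112 and 2114 to 3439 CPM. All 20 class I genes were tested and 0 were called. An unadjusted p under 0.05 was found for 5, all lower in recent KO, beside 5.35% of all genes in that direction. The smallest p belonged to *Pdia3*, *Tapbp*, and *Calr*, parts of the peptide-loading complex (log2 fold change -0.39, -0.21, and -0.32, edgeR adjusted p = 0.214, 0.223, and 0.240). *Nlrc5*, the class I counterpart of *Ciita*, measured 5.09 to 8.49 CPM over both groups.

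The 5 *H2* members lie between 34119541 and 34316674 on chromosome 17. Of the 24 other tested genes within 200 kb of them, 0 were called by edgeR. An unadjusted p under 0.05 was found for 2, both lower in recent KO, beside 5.35% of all genes in that direction. Log2 fold changes of the 24 ran from -0.25 to 0.35 with a median of -0.0200. Over the 10 samples, the genes whose log2 CPM was most like the mean z score of the 6 tested members were *Exosc1*, *Ptgds*, *Zfp213*, *Angel2*, *G430095P16Rik*, *Satb1*, *Eid2b*, *Ppa2*, *AC132455.2*, and *Ddx19a*. Their Pearson r ran from 0.92 to 0.94, the highest of the other tested genes, and none of the 10 was called. This is a description of 10 samples that share their libraries with the members.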

How the data were processed

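RNA-seq of 5 WT and 5 recent KO GMP samples was analyzed, with groups and replicate numbers from the sample labels. The authors enriched CD27+ bone marrow cells, sorted CD45.2+ GMPs, made SMARTseq V4 libraries, and quantified GENCODE M27 transcripts with Salmon (1.5.1 in the submitters' processing notes). SMARTseq V4 does not mark strand, so sense and antisense reads cannot be told apart. The authors deposited, per transcript, estimated counts of reads, which are not normalized, effective lengths, and TPM values, scaled to transcript length. The deposited table of the authors' own comparison (DESeq2 fold changes and p-values) was not used.

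Transcripts were joined to genes by Ensembl identifier in GENCODE M21 (GRCm38). Of 140789 transcripts, 137161 (97.4%) matched, and the rest held 0.348% to 0.390% of the reads of a sample. Reads were summed per gene and rounded. Positions are from M21.

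The test was the quasi-likelihood test of edgeR 4.0.16 (R 4.3.3, TMM, filterByExpr with a minimum count of 10, condition only) on all genes, with Benjamini-Hochberg adjustment at 0.05. CPM are normalized by TMM. Intervals cover 95% and come from that fit. Ratios and transcript shares were tested over samples by exact permutation (two-sided), where 5 against 5 samples cannot give a p below 0.00794. Correlations used permutation tests with 100000 resamples. Scripts were tested on simulated data. Alternatives were other normalizations and filters, DESeq2 1.42.0, limma 3.58.1 on log2(TPM + 1) or log2(TPM + 0.1), a transcript length offset, a replicate block, and leaving out each sample. Transcripts were compared with BLAST 2.17.0, and scipy 1.17.1 was used for permutations. Replicates of a group differed by a chi-square of 6.71 or more per gene, above sampling noise, and each counted as 1 sample. Limits from counts of 0 cover counting error only, because amplified reads without molecular identifiers are not independent.

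The members and gene lists were chosen with earlier results of these data known. Genes named were the members, *Mpc2*, every called gene of a list or else the 3 with the smallest p, the markers called or at 0, and the 10 genes most like the members. The genes *Gm20513*, *Rfx5*, *Rfxap*, *Nfya*, *Nfyb*, *Nfyc*, *Ifngr1*, *Ctss*, *Mif*, *H2-K1*, *B2m*, *Nlrc5*, *Flt3*, *Cd79b*, *Cd5l*, *Fcna*, *Clec10a*, *Xcr1*, *Bst2*, *Tcf4*, *Adgre1*, *Vcam1*, and *Slc40a1* were named in addition, after their values were seen. The single result of 1 listed marker is not reported here.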

Additional observations from a re-analysis of the deposited data

Results flagged for a closer look

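In 48 groups of 5 samples checked for a single sample far from the rest, 2 such samples were found, where chance gives about 2.4. In WT, sample 4 had 48.8% of its *Cd74* reads on Cd74-202, and the other WT samples had 0 to 11.1%. The value rests on 22 estimated reads. In recent KO, sample 2 had 142 CPM of summed plasmacytoid dendritic cell markers, and the other recent KO samples had 188 to 203 CPM.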

How the results depend on the processing

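The number of genes called was 41, and it was 206 with no filter on low counts, 156 with DESeq2, 25 with limma on log2(TPM + 1), 24 on log2(TPM + 0.1), 13 on log2(TPM + 1) without a filter, and 25 to 91 when a sample was left out, with 91 without recent KO sample 2. Of the members, 0 were called under each of these settings except without the filter on low counts, where 1 (*Cd74*) was, and 0 when any sample was left out. Of 120 refits of single members, 119 kept their side of the threshold. The log2 fold change of *Cd74* ran from 0.84 to 1.39 and that of *H2-Eb1* from 0.64 to 1.52, and the lowest adjusted p of *H2-Eb1* was 0.0516, with DESeq2. *H2-Eb1* could not be fitted with a mean count of at least 50. *H2-DMb1* changed sign between settings, from -0.12 to 0.0908, and was never called. The cause of these shifts was not tested, beyond the number of genes or samples each setting changes. Leaving out a sample, the difference in log2 ratio ran from 0.28 to 0.59 for *H2-Aa* to *H2-Ab1*, from 0.67 to 1.36 for *Cd74* to the chains, and from 0.0595 to 0.26 for *H2-DMa* to *H2-DMb1*, and the difference in Cd74-202 share from -2.03 to 10.2 percentage points. The number of member pairs called was 5 on log2(TPM + 0.1) and 0 to 3 when a sample was left out. It was 3 with group means subtracted, where the permutation p are approximate. For the *Ciita* pairs the number was 0 throughout. With the replicate block, 20 genes and 0 members were called. Deviations of same-numbered samples correlated at -0.18 to 0.0579, so no sign of pairing by number was seen. The labels do not say whether the numbers pair samples, and these correlations cannot settle it. Depth limits *Ciita*, *H2-Eb1*, *Cd74*, and *H2-Aa*, with at most 6, 48, 185, and 80 reads in a sample.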
